A study of Mus musculus with 15 samples.

Results

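Nppa-high chamber cardiomyocytes were the heart muscle cells of E8.25 to E9.25 mouse embryos in which a set of 4 genes, Nppa, Nppb, Smpx and Cited1, was expressed highly relative to 3 other sets. There were 160 such cells among 816 cardiomyocytes (19.6%), which were themselves taken from 1400 cells in 15 single-cell libraries. A cell counted as a cardiomyocyte, and is called gated below, when at least 1000 genes were detected and cardiac troponin T (Tnnt2) reached 2000 CPM (counts of a gene scaled to one fixed total per cell). Each gated cell had a score for each of 4 sets, based on the mean of log2(CPM + 1) over the set's genes. That mean was z-scored over the gated cells (their average subtracted, then divided by their standard deviation), and single genes were not scaled. The 4 sets were the Nppa set, an outflow set (Tdgf1, Tnc, Nrp2, Rspo3, Bmp4), an atrial or inflow set (Gal, Vsnl1, Wnt2, Itga6, Cdo1) and a Cck set (Cck, Ppp1r17, Cxcl12). A cell was Nppa-high when the Nppa set gave its highest score and that score was at least 0.5. By the same rule 152 cells were Cck-high, 181 atrial or inflow-like and 179 outflow tract-like, and 144 had no set at 0.5. These 17 genes and Tnnt2 defined the classes, so their levels are given only as a description.

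The study sequenced single cells of the developing mouse heart in which a Cre recombinase switched on a tdTomato reporter at the Rosa26 locus. The mice were Isl1Cre::Rosa26tdTomato or Nkx2-5Cre::Rosa26tdTomato. Isl1Cre marks descendants of cells that expressed Isl1, a gene of second heart field progenitors, and Nkx2-5Cre marks descendants of cells that expressed the cardiac gene Nkx2-5. The groups used here were Isl1Cre and Nkx2-5Cre at E8.25, E8.75 and E9.25, each with 2 libraries except Isl1Cre E9.25, which had 1. Both libraries of a group carried the same embryo number, so a group stood for 1 embryo and tests over libraries or embryos measured only the spread between them. Cells had been released by sorting or by trypsin digestion alone and picked by mouth pipette. The labels do not say which of these applied to a given library, so shares of cells may carry that choice. The median count per gated cell ranged from 68291 to 196804 between libraries. It was 142222 in Nppa-high cells and 106276 in the other gated cells, with medians of 6270 and 5613 detected genes.

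The embryonic heart begins as a tube of primary myocardium from which the working muscle of the ventricles and atria balloons out. Nppa and Nppb encode the atrial and brain natriuretic peptide precursors and are classic genes of that chamber muscle, whereas the atrioventricular canal between the chambers, where Bmp2 and the T-box repressors Tbx2 and Tbx3 are active, is kept free of them. Smpx encodes a small muscle protein of the costamere, and Cited1 encodes a transcriptional co-regulator.

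The promoters of the 2 natriuretic peptide genes are shown because these genes led the definition of the class. Both genes lie on the forward strand of mouse chromosome 4, and the sequences are the 250 bases before the annotated starts in the RefSeq annotation of GRCm38.p6, at chr4:148000472-148000721 for Nppa and chr4:147985650-147985899 for Nppb. Capitals mark matches on either strand to 4 motifs. The GATA motif was searched as AGATAA and, separately, with a different first base, as TGATAA. The T-box half-site was searched as GGTGTGA, which reads TCACACC on the other strand, and the NKX2-5 core as AAGTG.
Nppa: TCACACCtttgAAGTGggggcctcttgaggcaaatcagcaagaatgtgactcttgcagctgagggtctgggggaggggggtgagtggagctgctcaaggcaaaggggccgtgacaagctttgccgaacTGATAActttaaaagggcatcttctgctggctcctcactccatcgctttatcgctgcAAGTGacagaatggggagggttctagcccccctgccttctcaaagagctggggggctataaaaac
Nppb: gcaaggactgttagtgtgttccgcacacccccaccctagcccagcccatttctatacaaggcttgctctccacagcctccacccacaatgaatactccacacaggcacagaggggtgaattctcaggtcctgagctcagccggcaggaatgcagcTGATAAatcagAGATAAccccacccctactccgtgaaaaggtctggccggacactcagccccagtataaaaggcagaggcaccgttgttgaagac
The Nppa window held TGATAA 122 bases before the start, TCACACC at 250 bases and AAGTG at 239 and 65 bases. The Nppb window held TGATAA at 95 bases and AGATAA at 84 bases. Among 32817 promoter windows of this length, 9.99% held AGATAA, 7.95% TGATAA, 3.33% GGTGTGA and 40.7% AAGTG, on either strand. The matches are letters in a window, and binding was not measured.

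Nppa-high cells were found in every library from E8.25 on. In Isl1Cre embryos they made up 8.20% and 6.90% of gated cells in the 2 E8.25 libraries, 25.9% and 6.85% at E8.75, and 41.6% (37 of 89 cells) in the single E9.25 library. In Nkx2-5Cre embryos they made up 28.0% (23 of 82 cells) and 20% (15 of 75) at E8.25, 11.8% and 7.06% at E8.75, and 26.6% and 26.7% at E9.25. The 2 Isl1Cre E8.75 libraries differed most within a group, with exact binomial 95% intervals, which cover counting error only, of 14.96% to 39.7% and 2.26% to 15.3%. Pooled by embryo, the share was 7.56%, 14.96% and 41.6% in Isl1Cre and 24.2%, 9.41% and 26.6% in Nkx2-5Cre embryos at the 3 stages.

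Over all stages the share was 65 of 335 Isl1Cre cells (19.4%) and 95 of 481 Nkx2-5Cre cells (19.8%). The stage-adjusted difference between libraries was 1.82 percentage points higher in Isl1Cre (exact two-sided permutation p = 0.704, Benjamini-Hochberg adjusted over 4 tests of shares 0.844). In Isl1Cre libraries the share had a slope of 31.7 points per day over 5 libraries (exact p = 0.1, adjusted 0.2). Without the E9.25 library the slope was 17.7, which rested on the 1 E8.75 library at 25.9%. In Nkx2-5Cre libraries the slope was 2.60 points per day over 6 libraries (exact p = 0.844, adjusted 0.844), with the lowest shares at E8.75.

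**Figure D1:**
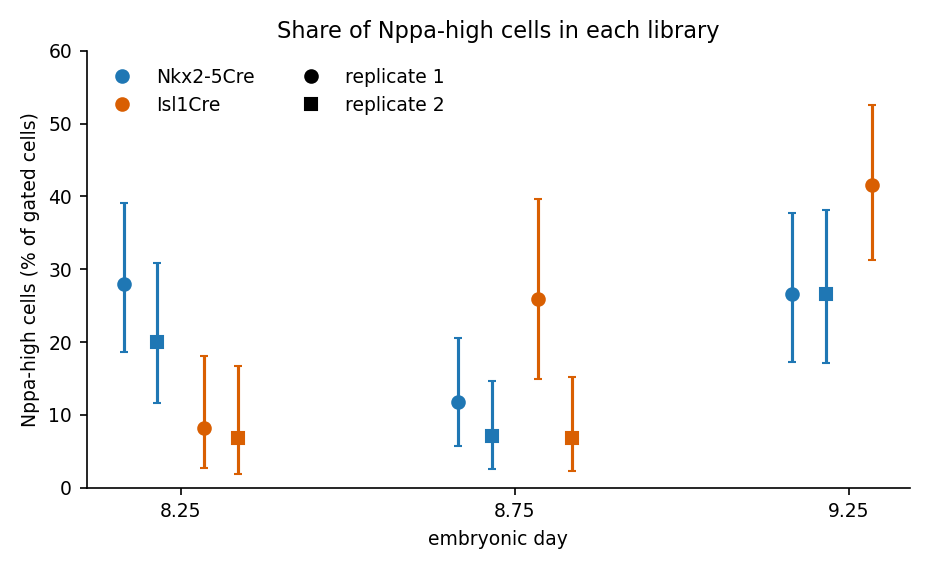
Share of gated cardiomyocytes that were Nppa-high (y axis, percent) in each of 11 libraries grouped by lineage and stage (x axis), with 95% exact binomial intervals. The single Isl1Cre E9.25 library is the highest at 41.6%, and both Nkx2-5Cre E8.75 libraries sit under the other Nkx2-5Cre libraries.

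The score of Nppa-high cells ran from 0.517 to 2.41, with a median of 1.26. The class had a soft edge. Another 28 cells had the Nppa set highest but under 0.5, the nearest at 0.495, and 104 cells reached 0.5 for the Nppa set but scored higher for another set, 67 of them for the Cck set. Among the 160 Nppa-high cells, 59 also reached 0.5 for a second set, 34 of them for the Cck set, 17 for the atrial or inflow set and 8 for the outflow set. Nppa and Smpx were detected in all 160 cells, Nppb in 158 and Cited1 in 153. Cells were picked one at a time and no doublet caller was run.

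The genes that chose the cells are described first. Mean Nppa in Nppa-high cells, by embryo, was 742 CPM in Isl1Cre E8.25, 1402 in Isl1Cre E8.75, 1790 in Isl1Cre E9.25, 1408 in Nkx2-5Cre E8.25, 2396 in Nkx2-5Cre E8.75 and 3713 in Nkx2-5Cre E9.25. In the other gated cells of these embryos, in the same order, it was 89.9, 296, 960, 230, 216 and 569 CPM. Nppa thus had its highest level among other cardiomyocytes in the Isl1Cre E9.25 embryo, above the mean of Nppa-high cells of the Isl1Cre E8.25 embryo. Nppb in Nppa-high cells showed no such order with stage, at 691, 376, 697, 756, 1293 and 622 CPM in the same order. Smpx lay between 495 and 767 CPM in Nppa-high cells and between 179 and 338 CPM in the others. Cited1 lay between 89.3 and 384 CPM in Nppa-high cells and between 22.8 and 91.0 CPM in the others.

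The label of chamber cardiomyocytes was checked with genes the scores did not use. For the tests that follow, the mean CPM over Nppa-high cells of an embryo was compared with the mean over its other gated cells, as a difference of log2(mean CPM + 1) after TMM scaling, and tested with limma over the 5 embryos with at least 10 cells on each side. Differences on this scale understate the change of low genes. The Isl1Cre E8.25 embryo, with 9 Nppa-high cells, was left out. Because the cells were chosen on 17 expressed genes, every gene that varies with those is partly fixed by the choice, and an adjusted p (Benjamini-Hochberg over all tested genes, threshold 0.05) says only how steady a difference was over embryos. Of 10123 genes tested, 769 (7.6%) passed, 449 (4.44%) higher and 320 (3.16%) lower in Nppa-high cells. Without TMM scaling 269 were higher and 433 lower, so the split between directions depended on the scaling. Thinning to 10000 counts dropped the cells below that number, 6 Nppa-high and 50 other gated cells. After thinning, with TMM scaling kept, 73 genes were higher and 174 lower, with a median over all genes of -0.22. Without the Nkx2-5Cre E9.25 embryo 428 genes passed.

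Of 11 chamber genes listed for the check, 4 were higher, 1 was lower, 5 did not pass and 1 was not tested. Hey2, a transcription factor of compact ventricular muscle, was 19.9, 29.3 and 22.8 CPM in Nppa-high cells of Nkx2-5Cre embryos at E8.25, E8.75 and E9.25 and 24.98 and 27.0 CPM in Isl1Cre embryos at E8.75 and E9.25. The other gated cells had 10.2, 13.1, 10.12, 9.93 and 23.5 CPM in the same order, which is the order used below. Only the other gated cells of the Isl1Cre E9.25 embryo reached into the Nppa-high range, and the log2 difference was 0.99 ± 0.25 (SE, limma adjusted p = 0.0194, n = 5 embryos). The ventricular light chains Myl2 and Myl3 were 0.63 ± 0.07 and 0.22 ± 0.06 higher. Ankrd1, which encodes a stretch-responsive sarcomere protein, was lower by embryo mean at -0.40 ± 0.09. Gja5, which encodes connexin 40 of trabecular muscle, gave 1.37 ± 0.48 (adjusted p = 0.0941) at 1.37 to 16.8 CPM, and Irx3, Hand1, Tbx5 and Kcne1 did not pass either.

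Genes of the muscle outside the chambers were checked in the same way. The other gated cells in this check included the outflow tract-like and the atrial or inflow-like cells. All 4 listed atrioventricular canal genes and all 3 listed outflow genes were lower in Nppa-high cells in each of the 5 tested embryos. Sema3c and Wnt11 were not lower in the Isl1Cre E8.25 embryo, which was left out. Tbx2 was 3.73, 3.08, 1.24, 1.70 and 0.948 CPM in Nppa-high cells against 14.9, 22.2, 17.2, 17.5 and 7.42 CPM in the others. Nppa-high cells lay below every other value, with a log2 difference of -2.37 ± 0.37. All their means were under the 5 CPM of the filter, so Tbx2 entered the test only through the other gated cells. Its call was therefore largely fixed in direction, and its levels are a description only. Bmp2, the ligand that induces Tbx2 in the canal, was 13.9, 13.03, 5.80, 2.30 and 2.53 CPM against 33.4, 45.1, 33.7, 33.5 and 32.9 CPM, a difference of -2.31 ± 0.32. Tbx3 and Msx2 were lower by embryo mean at -1.60 ± 0.29 and -1.68 ± 0.27. Of the outflow genes, Isl1 was 0.452 to 3.24 CPM in Nppa-high cells against 5.28 to 41.2 CPM in the others (-2.73 ± 0.43), and it entered the test in the same way as Tbx2. Sema3c and Wnt11, guidance and Wnt ligands of the outflow tract, gave -1.17 ± 0.29 and -1.25 ± 0.24. Counts of called genes in lists, here and below, include genes that entered through 1 side only. With the wider lists, 6 of 10 atrioventricular canal genes were lower and 0 higher (median log2 difference -0.86), between 4 and 7 over the alternative settings run. Of 19 outflow tract and right ventricle genes 7 were lower, 1 was higher (Dkk3) and 11 did not pass, and of 8 second heart field progenitor genes 4 were lower and 0 higher. The median over all tested genes was -0.03.

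Among ventricular and trabecular genes the direction was mixed. Of 14 ventricular genes 5 were higher (Gja1, Hey2, Irx4, Myl2, Myl3) and 0 lower, which became 3 and 1 without TMM scaling and 2 and 0 after thinning. Gja1, which encodes connexin 43, the gap junction protein of working ventricular muscle, was 26.5, 26.1, 60.9, 53.8 and 37.8 CPM in Nppa-high cells against 7.93, 7.37, 13.3, 8.47 and 4.06 CPM in the others (2.26 ± 0.26, limma adjusted p = 2.27e-05). No other value reached the lowest Nppa-high one. Of 22 chamber and trabecular genes, 5 were higher (among them Csrp3, Gja1, Hey2 and Mycn) and 3 lower (Ankrd1, Hey1, Tbx20). Of 20 genes of the neuregulin, Notch and BMP signals that shape trabeculae, 7 were lower (Bmp2, Has2, Hey1, Id1, Id2, Id3, Vcan) and Hey2 alone was higher. Hyaluronan synthase Has2 and versican (Vcan) build the cardiac jelly, and Hey1 and Hey2 are Notch-responsive repressors.

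The gene with the largest called increase among well expressed genes was Vcam1, which encodes an adhesion molecule that binds integrin alpha 4. It was 85.9, 88.5, 74.3, 77.6 and 81.2 CPM in Nppa-high cells against 49.4, 46.0, 35.1, 29.9 and 21.9 CPM in the others. The difference was 1.27 ± 0.18 on the log2 scale (limma adjusted p = 0.000127), with no overlap between the groups. Mycn, a MYC family transcription factor needed for growth of the embryonic ventricular wall, was 58.0, 58.5, 85.6, 57.5 and 50.8 CPM against 27.2, 22.8, 45.8, 41.3 and 21.9 CPM (1.06 ± 0.18, adjusted p = 0.000811). These groups did not overlap either. The other genes named by rule as the largest increases were Fam195a, Dctd (a deaminase of nucleotide synthesis), Kcnk3 (a potassium leak channel), Epb4.1l4aos, Prps1 (phosphoribosyl pyrophosphate synthetase), the proteasome subunit Psmb10, Acp6, Chchd4 (mitochondrial import), Srm (spermidine synthase) and Rangrf, at 0.89 to 1.17. Epb4.1l4aos is annotated as an antisense transcript, and strand-specific counting is not stated, so its reads could come from its sense partner.

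For genes that make ribosomes and metabolic building blocks, 2 lists were drawn up after the values had been seen and are not independent evidence. Of 55 ribosome biogenesis and nucleolar genes, 24 were higher and 0 lower (median 0.50). Gnl3, which encodes nucleostemin, was 187, 219, 195, 197 and 202 CPM in Nppa-high cells against 123, 100.4, 120, 116 and 130 CPM, a difference of 0.84 ± 0.11 (limma adjusted p = 0.000103), with no overlap. Nucleolin (Ncl) and nucleophosmin (Npm1) were each 0.55 ± 0.06 higher. Of 23 genes of polyamine, nucleotide and serine synthesis, 12 were higher and 0 lower (median 0.57). Srm was 211, 141, 128, 206 and 146 CPM against 118, 76.0, 99.1, 104 and 71.4 CPM (0.90 ± 0.12), and Odc1, ornithine decarboxylase, was 0.65 ± 0.12 higher. With a score cut of 1.0 the 2 lists had 6 and 4 genes higher, and after thinning to 10000 counts 12 and 3. Leaving out 1 embryo took the ribosome list to as few as 14 (without Nkx2-5Cre E8.25) and the synthesis list to as few as 7 (without Nkx2-5Cre E9.25).

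Of 30 S phase genes 6 were higher (Ccne2, Cdt1, Dut, Pcna, Rrm2, Ung) and 0 lower, and 3 were higher without TMM scaling, 1 after thinning and 0 with a score cut of 1.0. Of 30 G2 and M phase genes 1 was higher, Ube2c. Cyclin D2 (Ccnd2) was 402, 331, 619, 392 and 416 CPM in Nppa-high cells against 245, 176, 512, 160 and 408 CPM (0.72 ± 0.13, limma adjusted p = 0.00127), although the 2 E9.25 embryos had the highest values on both sides, so the groups overlapped. The cell cycle inhibitor Cdkn1c was lower by embryo mean (-0.44 ± 0.07).

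Nuclear-encoded genes of the respiratory chain were higher by small amounts. Of 42 genes tested 28 were higher and 0 lower, with a median of 0.26. Cytochrome c (Cycs) was 2348, 2688, 3230, 2387 and 2842 CPM in Nppa-high cells against 2089, 2046, 2328, 1864 and 2246 CPM (0.43 ± 0.05, limma adjusted p = 5.37e-05), and every Nppa-high mean was above every other mean. This count depended on the setting: 15 were higher without TMM scaling, 10 at a score cut of 1.0, 5 after thinning, and 15 and 18 without the Nkx2-5Cre E9.25 and E8.75 embryos. Of 28 genes of fatty acid oxidation and muscle mitochondria 3 were higher and 1 lower, and of 26 glycolysis and hypoxia genes 1 was higher (Ldhb) and 3 lower (Ankrd37, Pkm, Slc2a3). Of 38 sarcomere genes 7 were higher (Acta1, Actc1, Csrp3, Myl1, Myl2, Myl3, Tnni3) and 1 lower (Tpm2), a split that became 3 higher and 8 lower both without TMM scaling and after thinning. Of 24 calcium handling and excitation genes 2 were higher and 1 lower, of 20 stretch and stress genes 2 were higher and 3 lower, and of 12 atrial and inflow genes 2 were higher and 2 lower.

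**Figure D2:**
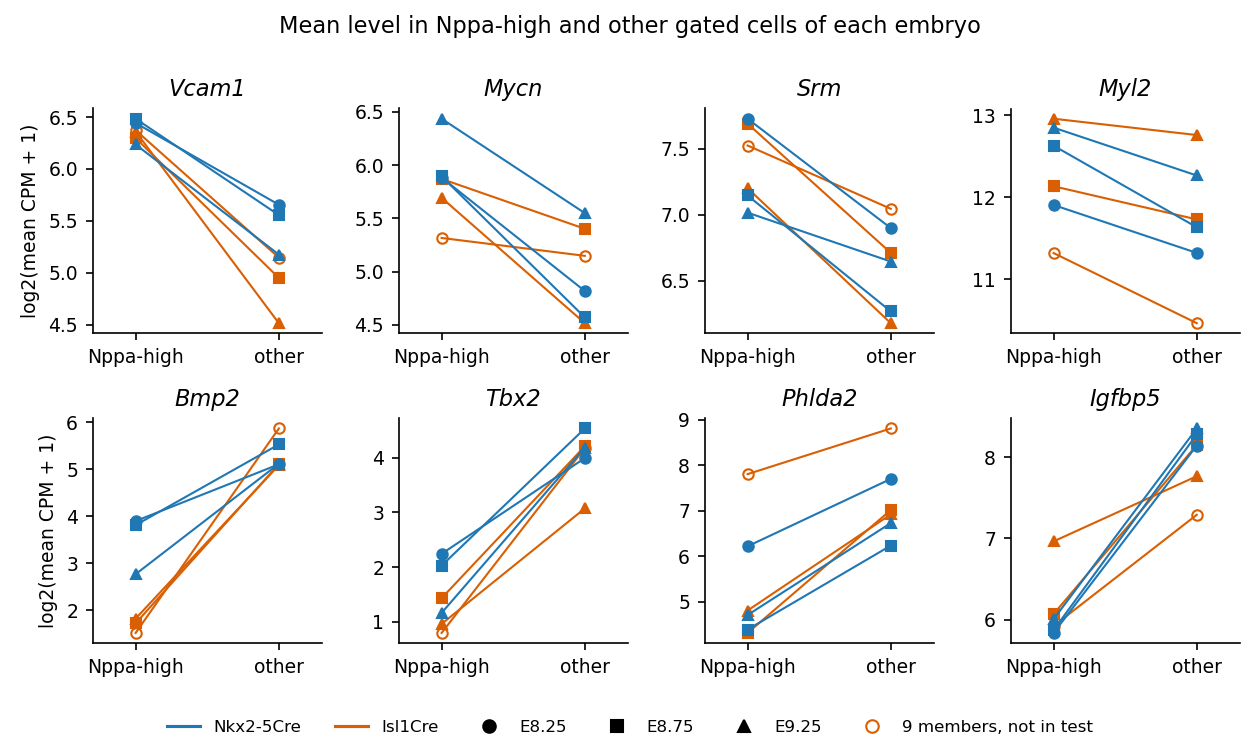
Mean level of 8 genes, log2(mean CPM + 1) on the y axis, in Nppa-high and other gated cells, with a line joining the 2 means of each of 6 embryos. Open circles are the Isl1Cre E8.25 embryo with 9 Nppa-high cells, which was left out of the main tests of genes. In the 5 tested embryos Vcam1, Mycn, Srm and Myl2 are higher and Bmp2, Tbx2, Phlda2 and Igfbp5 lower in Nppa-high cells.

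The largest decreases included imprinted genes and a growth factor binding protein. Phlda2, an imprinted growth restrainer, was 73.5, 19.9, 25.1, 18.9 and 27.0 CPM in Nppa-high cells against 207, 74.3, 105, 129 and 120 CPM in the others (-1.96 ± 0.17, limma adjusted p = 1.9e-06). Only the Nkx2-5Cre E8.25 mean came near the lowest other value. Nnat, another imprinted gene, was 10.8 to 43.4 CPM against 75.2 to 143 CPM (-1.96 ± 0.19), without overlap. Igfbp5, an insulin-like growth factor binding protein, was 56.1, 57.5, 63.2, 66.1 and 124 CPM against 282, 309.9, 326, 283 and 217 CPM (-1.91 ± 0.17, adjusted p = 1.9e-06), without overlap. Of 21 tested genes on a list of imprinted genes, drawn up after values were seen, 11 were lower and 0 higher (Cdkn1c, Dlk1, Grb10, H19, Igf2, Kcnq1ot1, Meg3, Nnat, Peg3, Phlda2, Rian; median -0.60), between 6 and 14 over the settings run. H19, Igf2, Cdkn1c, Kcnq1ot1 and Phlda2 lie in neighbouring imprinted clusters of chromosome 7, and Dlk1, Meg3 and Rian in one cluster of chromosome 12. H19 was 126 to 313 CPM against 295 to 452 CPM (-0.90 ± 0.10), and Igf2 was 235 to 449 CPM against 420.1 to 539 CPM (-0.60 ± 0.09), and both overlapped only through the Isl1Cre E9.25 embryo's Nppa-high cells. Kcnq1ot1 runs antisense to Kcnq1 and cannot be told apart from it if strand was not counted.

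Of 18 BMP response and Id genes, a list drawn up after values were seen, 10 were lower and 0 higher (median -0.85), between 5 and 11 over the settings run. Id3, an inhibitor of bHLH factors and a direct BMP target, was 103, 152, 68.9, 73.8 and 58.4 CPM against 178, 256, 324, 240.2 and 174 CPM (-1.32 ± 0.16, limma adjusted p = 4.38e-05), with no overlap. Id1 and Id2 gave -1.02 ± 0.16 and -0.63 ± 0.11. Wnt11 and Wnt5a, ligands of non-canonical Wnt signalling, gave -1.25 ± 0.24 and -1.16 ± 0.21, and fibronectin (Fn1) gave -1.07 ± 0.21. Of 25 extracellular matrix and adhesion genes 5 were lower (Col1a1, Col1a2, Fbn1, Fn1, Vcan) and 0 higher. The other genes named by rule were Fam78a, Ap1s2, Meg3, Abcc5 (an exporter of cyclic nucleotides) and the phosphatase Dusp22, which at 682 to 2051 CPM against 1477 to 3504 CPM had the smallest adjusted p of all genes (-1.08 ± 0.08, 2.71e-07).

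Of 9 tested genes for processing or binding natriuretic peptides, 2 were lower and 0 higher. Furin, a protease that cleaves the brain natriuretic peptide precursor, was 13.9, 13.8, 7.14, 6.28 and 11.04 CPM in Nppa-high cells against 20.5, 22.04, 23.5, 32.1 and 22.6 CPM (-1.11 ± 0.29, limma adjusted p = 0.0201), with no overlap between the groups. Mme, the peptide-degrading neprilysin, gave -1.19 ± 0.33. Corin, the protease for the atrial peptide precursor, and the receptors Npr1 and Npr3 gave 0.37 ± 0.44, -1.02 ± 0.44 and 0.22 ± 0.45, none of which passed. After thinning 0 of these genes passed.

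**Figure D3:**
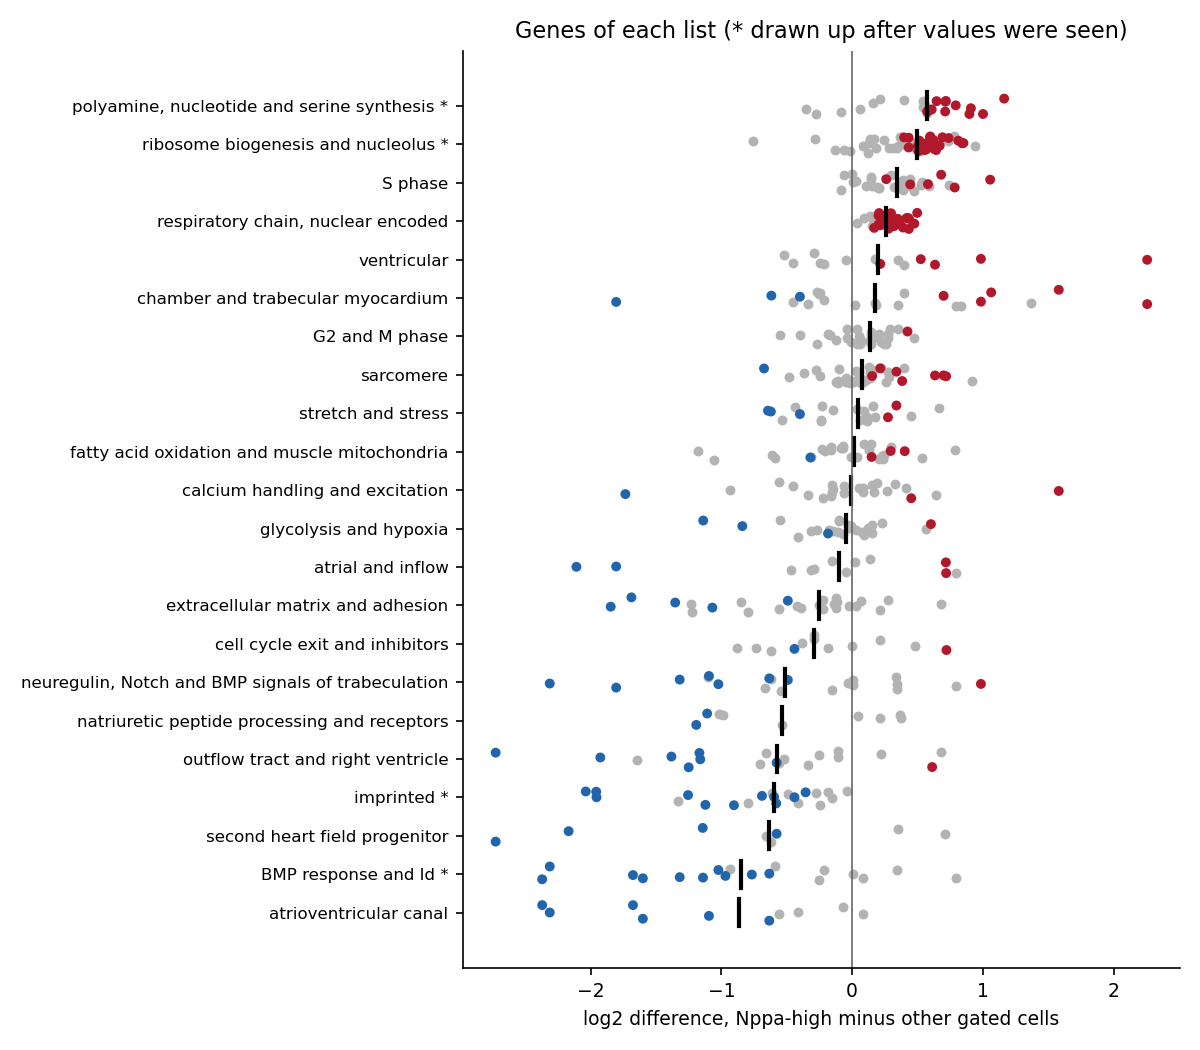
Log2 difference between Nppa-high and other gated cells (x axis) for each tested gene of each list (y axis), red where higher and blue where lower at a limma adjusted p under 0.05, grey otherwise, with a black bar at the list's median. An asterisk marks the 4 lists drawn up after values were seen. Respiratory chain, ribosome biogenesis and synthesis lists hold no blue points, and atrioventricular canal, BMP response and imprinted lists hold no red ones.

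Markers of other cell types were compared on both sides. Ranges of sums cover 5 embryos for Nppa-high cells and 6 for the others, where Isl1Cre E8.25 had enough cells. The summed level of 16 endothelial and endocardial markers was 118 to 177 CPM in Nppa-high cells and 136 to 352 CPM in the others, with none at 0 and Kdr alone called (lower). The sum of 14 endoderm and epithelial markers was 482 to 913 CPM against 808 to 2101 CPM, with Afp at 0 in Nppa-high cells, Krt8 and Krt18 lower and Spink1 higher. The sum of 14 mesenchyme, cushion and epicardium markers was 29.9 to 68.3 CPM against 31.5 to 79.0 CPM, with Pdgfra lower and Wt1 higher. Wt1, an epicardial transcription factor, was 9.55, 37.6, 35.6, 24.2 and 49.2 CPM in Nppa-high cells against 3.74, 11.4, 5.96, 19.05 and 15.4 CPM (SE of the log2 difference 0.29, limma adjusted p = 0.00272). Its values overlapped only through Nkx2-5Cre E8.25, and after thinning no gene of this list passed. The sum of 10 blood markers was 0 to 504 CPM against 0.32 to 845 CPM, with Hba-a1, Gata1, Slc4a1 and Ptprc at 0 in Nppa-high cells. The part of other cell types, and of the higher counts per Nppa-high cell, in these differences was not tested.

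The Isl1Cre E8.25 embryo was left out of the main comparison with other gated cells, although its libraries entered the tests of shares. It gave differences in cells outside that fit, with its 9 Nppa-high cells set against 110 others. Unlike the tests, these differences of log2(mean CPM + 1) had no TMM scaling. The split between directions depended on the scaling in the tested embryos, and so may the signs counted here. Of the 449 genes called higher, 295 (65.7%) were positive there, and of the 320 called lower, 252 (78.8%) were negative. Over all tested genes 43.4% were positive and 56.5% negative. Of the 24 genes named by rule, 11 of 12 and 10 of 12 had the sign seen in the other embryos. Among genes of the label check, Sema3c (0.36), Wnt11 (0.27), Ankrd1 (0.62) and Hey2 (-0.56) had the opposite sign there. Tbx2, Tbx3, Bmp2, Msx2, Isl1, Myl2 and Myl3 kept theirs. Its cells were chosen by the same scores, so the signs are partly fixed as above.

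Cck-high cells were the nearest class, since most cells just outside the Nppa-high class belonged to it and both classes had a like number of counts (medians 142222 and 144392). Over the same 5 embryos 412 of 10231 genes (4.03%) passed, 225 (2.2%) higher and 187 (1.83%) lower in Nppa-high cells. The split depended on the setting, at 195 higher and 215 lower without TMM scaling, 137 and 146 by edgeR and 257 and 301 by DESeq2. Leaving out any 1 embryo but Nkx2-5Cre E8.25 left 233 to 254. Hand1, a bHLH factor of the outer curvature of the left ventricle, was 22.5, 17.6, 38.1, 42.2 and 34.2 CPM in Nppa-high cells and 6.18, 3.29, 3.26, 20.5 and 4.24 CPM in Cck-high cells (2.18 ± 0.37, limma adjusted p = 0.00045, n = 5 embryos). Only the Isl1Cre E8.75 Cck-high mean reached into the Nppa-high range. Gja1 was 3.81 to 8.59 CPM in Cck-high cells, below every Nppa-high mean (2.60 ± 0.34). In the other direction, Irx2, a ventricular homeobox gene, was 36.9 to 65.6 CPM in Cck-high and 14.7 to 39.4 CPM in Nppa-high cells (-1.04 ± 0.25), and Myl2 and Myl3 were lower than in Cck-high cells by 0.36 and 0.28 on the log2 scale. Irx4 gave -0.08 ± 0.16 and did not pass. Of 14 genes of the ventricular list, which does not hold Irx2, 2 were higher (Gja1, Hand1) and 5 lower (Fhl2, Lbh, Mpped2, Myl2, Myl3).

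By rule the largest increases were Vcam1 (1.62 ± 0.22), Rnd3 (1.49 ± 0.26), Mycn (1.24 ± 0.22), Pmp22, Aif1l and Gadd45g, and the largest decreases included Npl (-1.40 ± 0.25), Kank3, Dusp22, Atxn1 and Igfbp5. Mycn was 22.5, 26.1, 45.1, 28.8 and 14.5 CPM in Cck-high cells, below every Nppa-high mean. Of 55 ribosome biogenesis genes 20 were higher and 0 lower, of 23 synthesis genes 9 and 0, and of 30 G2 and M phase genes 6 and 0 (Anln, Birc5, Ccnb1, Cdk1, Cenpf, Ube2c), whereas of 26 glycolysis and hypoxia genes 0 were higher and 6 lower (Ankrd37, Bnip3, Eno3, Ldha, Pfkl, Pkm). Of 42 respiratory chain genes 2 were higher (Cycs, Uqcrc2) and 0 lower. Few genes of the lists that were low against all other gated cells passed here. Of 10 atrioventricular canal genes 1 was lower (Id2) and 0 higher, with a median of -0.79. Of 19 outflow tract and right ventricle genes 2 were lower (Cnn1, Sema3c) and 0 higher. Of 18 BMP response and Id genes 2 were lower (Id2, Id3) and 1 higher (Hand1), and of 20 imprinted genes 2 were lower (Meg3, Nnat) and 0 higher. The median over all tested genes was 0.01. The comparisons share the Nppa-high cells, and Cck-high cells were part of the other gated cells, so these counts are not separate evidence.

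Against atrial or inflow-like cells only 3 embryos had enough cells (Nkx2-5Cre E8.25 and E8.75 and Isl1Cre E8.75), since the E9.25 embryos had 7 and 3 such cells. In these, 339 of 9651 genes (3.51%) passed, 202 (2.09%) higher and 137 (1.42%) lower in Nppa-high cells. Without TMM scaling the split was 165 and 176. The edgeR quasi-likelihood test called 128, and leaving out Nkx2-5Cre E8.25 left 185. Ccnd2 was 402, 331 and 392 CPM in Nppa-high cells and 116, 70.4 and 72.1 CPM in atrial or inflow-like cells (2.19 ± 0.17, limma adjusted p = 1.58e-06, n = 3 embryos) and the classes did not overlap. Hand1 was 22.5, 17.6 and 42.2 CPM against 124, 48.4 and 233 CPM (-2.03 ± 0.27), the opposite of its direction against Cck-high cells. Tbx5, the limb and heart T-box factor of the inflow side, was 41.9, 37.6 and 25.7 CPM against 97.4, 105 and 119 CPM (-1.56 ± 0.25).

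Of 14 ventricular genes 4 were higher than in atrial or inflow-like cells (Gja1, Myh7, Myl2, Myl3), 1 was lower (Hand1) and 9 did not pass. Gja1 was 2.29 ± 0.53 and Myl2 1.04 ± 0.10 higher, and Irx2, from the chamber and trabecular list, was 2.29 ± 0.55 higher. Nr2f2, a nuclear receptor that sets atrial identity, was 0, 4.47 and 0.652 CPM in Nppa-high cells against 13.5, 35.6 and 24.2 CPM, and 4 of 13 atrial and inflow genes were lower and 0 higher (Myl4, Nr2f2, Stard10, Tbx5). Sarcolipin (Sln), an atrial muscle gene, was near 0 in both classes at these stages. Of 10 atrioventricular canal genes 4 were lower and 0 higher (Bmp2, Id2, Tbx2, Tbx3), and of 54 ribosome biogenesis genes 20 were higher and 0 lower. Of 30 S phase genes 5 were higher (Ccne2, Cdc6, Dut, Mcm6, Ung) and 0 lower. The 30 G2 and M phase genes did not share this direction, with 0 higher, 1 lower (Nusap1) and a median of -0.12. Of 42 respiratory chain genes 1 was higher (Atp5g1) and 0 lower. Besides Ccnd2, the genes named by rule were Lmod3 (1.65 ± 0.28), a leiomodin of thin filaments, Prps1, Aen, Srm (1.55 ± 0.20) and Slmap as higher and Igfbp5 (-2.19 ± 0.19), Fam78a, Nnat and Abcc5 as lower.

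**Figure D4:**
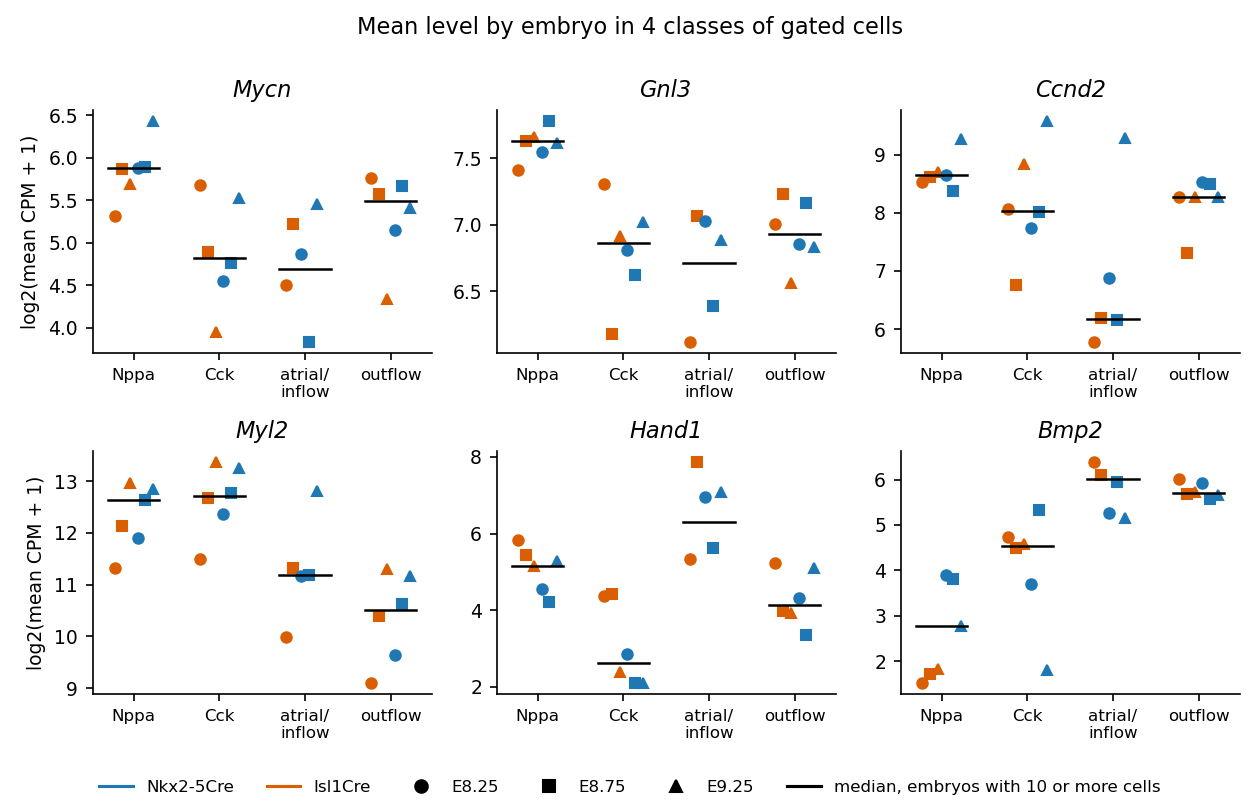
Mean level by embryo, log2(mean CPM + 1) on the y axis, of 6 genes in Nppa-high, Cck-high, atrial or inflow-like and outflow tract-like cells (embryos with at least 5 cells; the bar is the median over embryos with at least 10). Hand1 in Nppa-high cells lies between Cck-high and atrial or inflow-like cells, and Mycn and Gnl3 in Nppa-high cells are above both of these classes in the embryos tested against both.

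Lineage and stage were compared within Nppa-high cells with limma over the 7 libraries that had at least 10 of them, in a model with both terms. The Isl1Cre side then rested on 2 libraries, E8.75 replicate 1 and E9.25. Libraries that shared an embryo number counted as separate units, so these p-values may be too small. Between lineages 2 of 9733 genes (0.0205%) passed, Map1b, which encodes a microtubule-associated protein, and Hnrnpl, which encodes a splicing regulator. Map1b was 1461 and 990.3 CPM in Isl1Cre and 486 to 801 CPM in Nkx2-5Cre libraries (1.09 ± 0.18, limma adjusted p = 0.0341). Hnrnpl was 1427 and 1520 CPM in Isl1Cre and 608 to 955 CPM in Nkx2-5Cre libraries (1.02 ± 0.17, limma adjusted p = 0.0341). The libraries left out for few cells were less clear: the Isl1Cre E8.25 libraries had 581 and 682 CPM of Map1b and 722 and 980 CPM of Hnrnpl, within or near the Nkx2-5Cre range, and Nkx2-5Cre E8.75 replicate 2 had 1439 CPM of Hnrnpl. The other gated cells of the same embryos also had more Map1b in Isl1Cre at each stage. edgeR called 0 of these differences and DESeq2 31, and 772 genes had an unadjusted limma p under 0.05. Leaving out 1 library gave between 0 and 6 calls, with 0 without Isl1Cre E8.75 replicate 1 and without either Nkx2-5Cre E9.25 library, 1 without Isl1Cre E9.25 and 6 without Nkx2-5Cre E8.25 replicate 1. With the libraries of an embryo pooled 4 genes passed, of which 1, Map1b, was shared, and Hnrnpl no longer passed.

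Lineage intervals of genes named above differed in width, with Myl2 the narrowest of those given here. The Isl1Cre minus Nkx2-5Cre difference in Nppa-high cells had a 95% interval of -0.82 to 0.64 for Vcam1, -1.23 to 0.14 for Mycn, -0.40 to 0.10 for Myl2, -0.93 to 0.96 for Hand1 and -0.94 to 1.04 for Gja1, in log2 units. The interval for Myl2 leaves out a change of 2-fold, those for Vcam1 and Hand1 do so only narrowly, and those for Mycn and Gja1 do not. Whether the difference between Nppa-high and other gated cells itself varied with lineage or with day was tested as an interaction, and 0 of 10558 genes passed in either case (0%). At an unadjusted p under 0.05 there were 615 genes for lineage and 465 for day. Without Isl1Cre E9.25 4 genes passed for lineage, and without Nkx2-5Cre E9.25 replicate 1 2 genes passed for day.

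With stage, 18 of 9733 genes (0.185%) passed, 12 (0.123%) rising and 6 (0.0616%) falling per day. Without TMM scaling 5 rose and 7 fell. Every left-out library but Nkx2-5Cre E8.75 replicate 1 took the count to between 2 and 10, the lowest without Nkx2-5Cre E9.25 replicate 2. With the libraries of an embryo pooled 6 genes passed, and of 15 genes named by rule 6 still passed (Oxct1, Lars2, Myl2, Thbs4, Exosc2, Csrp2) and 9 did not. Myl2 rose most steadily, from 3604 and 4207 CPM in the Nkx2-5Cre E8.25 libraries through 6342 at Nkx2-5Cre E8.75 to 7496 and 7271 at Nkx2-5Cre E9.25, and from 4595 at Isl1Cre E8.75 to 7963 at Isl1Cre E9.25 (1.09 ± 0.13 log2 per day, limma adjusted p = 0.000567). No E9.25 value overlapped an earlier one. Oxct1, which encodes the enzyme that lets heart muscle burn ketone bodies, was 13.4 and 11.1 CPM at Nkx2-5Cre E8.25, 30.4 at Nkx2-5Cre E8.75 and 106 and 97.8 at Nkx2-5Cre E9.25, and 26.3 and 48.2 CPM at Isl1Cre E8.75 and E9.25 (2.91 ± 0.44 per day). The lactate dehydrogenase subunit Ldhb (1.47 ± 0.27), the fatty acid carrier Fabp3 (1.17 ± 0.22), the Z-disc protein Csrp3 and the mitochondrial genes Lars2 and Mrpl33 also rose. Hmgn3, Krt19, Vim, Tmsb4x and Hspb1 were the remaining genes that rose.

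Csrp2, a LIM protein of smooth and early muscle, fell from 1836 and 1720 CPM at Nkx2-5Cre E8.25 and 1389 at Nkx2-5Cre E8.75 to 639 and 802 at Nkx2-5Cre E9.25, and from 1472 to 718 CPM between Isl1Cre E8.75 and E9.25 (-1.31 ± 0.18 per day, limma adjusted p = 0.00296). Thbs4, an extracellular matrix thrombospondin, fell from 403 and 353 CPM at Nkx2-5Cre E8.25 to 87.1 and 123 CPM at Nkx2-5Cre E9.25 (-1.75 ± 0.28 per day). For both genes the E9.25 values lay below all earlier ones. Gstt1, Klk1, Exosc2 and Apoe were the others that fell. All 42 respiratory chain genes had a positive slope, with a median of 0.36 against 0.04 over all genes, and 0 of them passed. The other gated cells had like trends for Myl2, at 2562, 3183 and 4929 CPM in Nkx2-5Cre embryos over the 3 stages, and the interaction with day for Myl2 was 0.04 (95% interval -0.29 to 0.37).

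**Figure D5:**
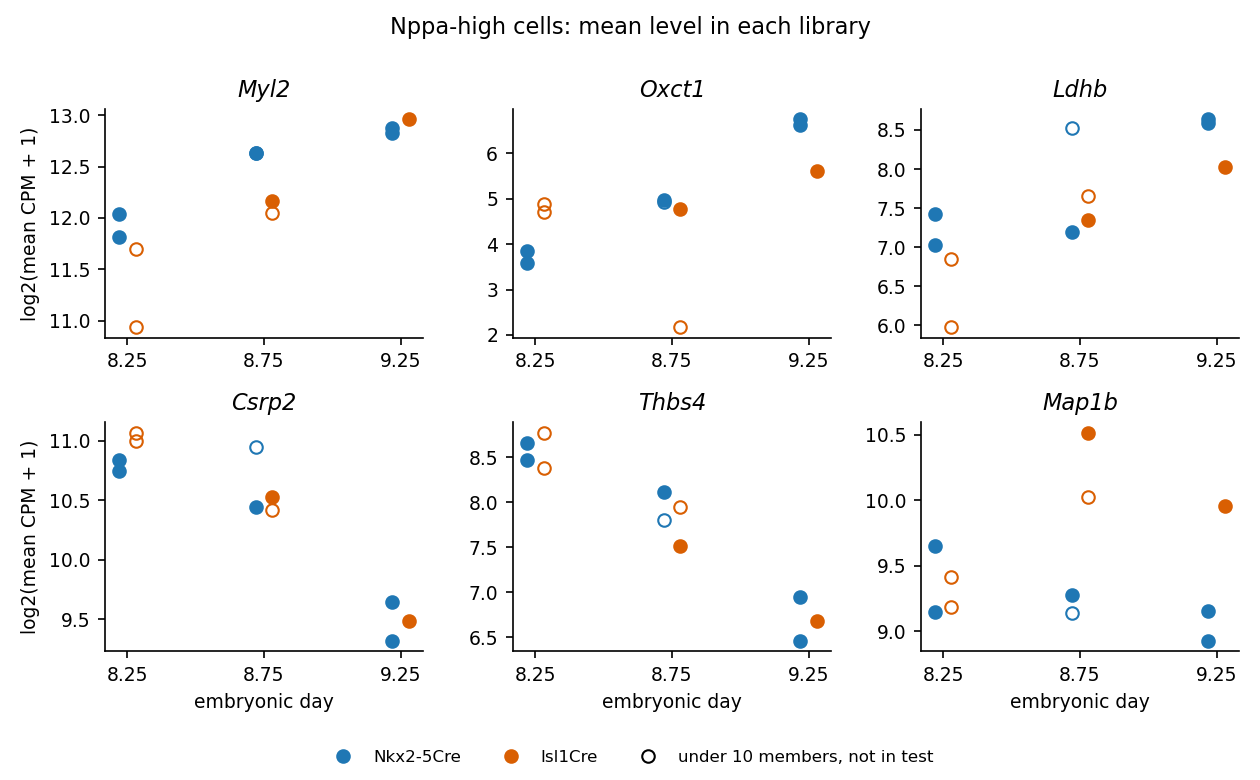
Mean CPM over Nppa-high cells of each library (y axis) against embryonic stage (x axis), coloured by lineage, for 6 genes. Open symbols are libraries with under 10 Nppa-high cells, which were left out of the main tests of genes. Myl2, Oxct1 and Ldhb are higher and Csrp2 and Thbs4 lower at E9.25, and Map1b is above the Nkx2-5Cre libraries in the 2 tested Isl1Cre libraries.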

How the data were processed

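Single cells of Isl1Cre::Rosa26tdTomato and Nkx2-5Cre::Rosa26tdTomato mouse hearts were sequenced from polyadenylated RNA with a modified Smart-seq2 protocol that captures 3′ ends and adds a cell barcode and a molecular identifier, per the labels' protocols. Per the submitters' processing notes the tools were HTSeq, TopHat2 2.0.12 and CASAVA 1.8, with mm10 as the genome build. The deposited values are CPM for 23154 genes in each cell. In each cell low CPM values were whole multiples of 1 step (100% within 0.1 of a step, up to 20 steps), so whole counts were recovered; neither labels nor headers say whether they are reads or molecules. Counts per gated cell ran from 1810 to 1637615, so a gene at 0 in a shallow cell may be below detection.

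From these values the 11 libraries of E8.25 to E9.25 were gated and scored, and CPM was averaged over the cells of an embryo or library, scaled by TMM, and tested as log2(mean CPM + 1) with limma 3.58.1 (trend) in R 4.3.3. A gene entered a test when 2 or more columns had a mean of 5 CPM or higher, so 1 side of a comparison alone could bring it in. The 18 genes of the rule were left out, and p-values had Benjamini-Hochberg adjustment over all tested genes. Shares of cells were compared with exact permutation tests over libraries. The comparisons, the members and the gene lists were chosen with earlier results of these data known. The genes named by rule had an adjusted p under 0.05, an average level of at least 5 on the log2 scale and, between classes, the same sign in every embryo, and were the largest differences (12 in each direction against all other gated cells, 6 against each class and 10 within Nppa-high cells), together with the 2 to 4 highest-expressed genes of each list. Some genes that the rule or a list names are not reported here. Other genes named as examples were chosen after their values were seen. Alternatives were edgeR 4.0.16 and DESeq2 1.42.0 on summed recovered counts, no TMM scaling, no filter, a pseudocount of 10, libraries as units, thinning to 10000 counts, a score cut of 1.0, a Tnnt2 gate of 4000 CPM and leaving out each embryo or library. Scripts were tested on simulated data. Gene positions are from an annotation of GRCm38 and promoter sequences from RefSeq for GRCm38.p6.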

Additional observations from a re-analysis of the deposited data

Results flagged for a closer look

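The slope of the Nppa-high share with stage was the 1 result singled out for a difference between groups. It was 29.1 percentage points per day steeper in Isl1Cre than in Nkx2-5Cre libraries, from slopes of 31.7 and 2.60 points per day. Permuting lineage within stage gave an exact two-sided p of 0.0463 over 108 arrangements, and 0.185 after adjustment over 4 tests of shares, so the difference failed the correction. The test was added after the shares had been seen. It leaned on the single Isl1Cre E9.25 library, where 37 of 89 gated cells were Nppa-high. Without that library the Isl1Cre slope was 17.7 points per day, and this value rested on the 1 E8.75 library at 25.9%. The other E8.75 library, at 6.85%, lay below both E8.25 libraries, at 8.20% and 6.90%.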

How the results depend on the processing

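Counts of genes with an adjusted limma p under 0.05 depended on the settings. Against all other gated cells (769) they fell to 206 with no filter on low values, 247 after thinning to 10000 counts and 249 at a score cut of 1.0, and ranged from 428 to 623 when 1 embryo was left out. Against Cck-high cells (412) they were 0 with no filter, 166 with libraries as units, 68 thinned and 180 at a cut of 1.0, and 233 to 312 with 1 embryo left out. Against atrial or inflow-like cells (339) they were 2 with no filter, 219 with libraries as units, 128 by edgeR, 60 thinned and 217 with at least 5 cells per side, and 185 to 404 with 1 embryo left out. The lineage count (2) was 0 with no filter, thinned and by edgeR, 4 with libraries pooled, 1 with at least 5 cells per side and 31 by DESeq2, and 0 to 6 with 1 library left out. The count per day (18) was 0 with no filter, 6 pooled, 4 thinned, 8 with at least 5 cells, 5 by edgeR and 53 by DESeq2, and 2 to 21 with 1 library left out. At an unadjusted p under 0.05 the counts of 0 with no filter stood at 1820 (Cck-high), 993 (lineage) and 886 (day), and those for lineage thinned and by edgeR at 594 and 576. The interactions gave 0 to 4 genes by lineage and 0 to 2 by day with 1 library left out, and 0 under every other setting run. The setting of at least 5 cells was chosen after seeing the data.

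The lineage difference in share turned to -0.979 points at a score cut of 1.0 and ranged from -1.36 to 4.99 with 1 library left out. This range does not cover the single Isl1Cre E9.25 library, since without it that stage would have only 1 lineage. The Nkx2-5Cre slope ranged from -1.98 to 10.6 points per day, at -1.91 without one of the E9.25 libraries. The Isl1Cre slope was 23.6 at a cut of 1.0 and 33.8 after thinning (exact permutation p = 0.0333 for both, unadjusted). It was 23.9 with a Tnnt2 gate of 4000 CPM (exact permutation p = 0.167, unadjusted), and 17.7 to 34.7 with 1 library left out. Fabp3 against other gated cells turned to -0.0149 after thinning. The cause of these shifts was not tested. Among single named genes, 1529 gene and setting pairs kept their direction and side of the threshold, 384 lost the call, 38 gained it, 109 moved and 1 turned. With the replicate number as a block the counts stayed at 2 by lineage, 18 per day and 0 for both interactions. Deviations of same-numbered libraries correlated at 0.047 over 2 groups, and 1 such value is too little to tell whether the numbers pair libraries. Low counts limit genes near 1 count per cell.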

Other observations

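Nppa-high cells differed among themselves by the set that scored second. The Cck set came second in 75 cells, the atrial or inflow set in 53 and the outflow set in 32. Hand1, not part of any set, was 15.4, 15.6, 5.07 and 33.3 CPM in cells with the Cck set second in the Isl1Cre E8.75 and the Nkx2-5Cre E8.25, E8.75 and E9.25 embryos. In cells of these embryos with the atrial or inflow set second it was 92.9, 36.4, 34.5 and 54.6 CPM, higher in all 4. Myl2 ran the other way, at 5302, 4322, 7571 and 8783 CPM with the Cck set second and 4248, 3404, 5448 and 6850 CPM with the atrial or inflow set second. Each mean rests on 7 to 19 cells, the split comes from the same scores, and no test was made.

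Before these stages the class was nearly absent by the same scores. At E7.75, 75 of 192 Nkx2-5Cre cells and 39 of 184 Isl1Cre cells passed the gate, and 1 and 0 of them were Nppa-high. The highest score of the Nppa set was 0.602 and -0.0462, and mean Nppa in gated cells was 24.8 and 4.35 CPM.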
